A study of Homo sapiens with 12 samples.

Results

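Prostate lineage and androgen axis genes were followed in spheroids of DU145 cells, a human prostate cancer line established from a metastasis. The 8 genes were KLK2, KLK3, TMPRSS2, FOXA1, HOXB13, SOX9, NR3C1 and FKBP5, chosen by name from a table of 26485 genes. The question was whether each gene was detected at all in these cells, and whether its level moved with α2 integrin. ITGA2, the gene of α2 integrin, had been knocked out by Crispr/Cas9 in DU145KO cells, and all 3 lines carried this edit. DU145KO was not transfected further, DU145KO+α2 was stably transfected with the pAWneo2 vector carrying α2 integrin cDNA, and DU145KO+vector was stably transfected with empty pAWneo2. The paper names geneticin in the culture of the transfected lines only, so its part cannot be told apart in comparisons to DU145KO. It describes a single line per construct. The p-values below thus compare replicates of single lines and do not cover differences between separately made lines. The knockout line was grown out from cells sorted for GFP, with a smaller population that still had α2 integrin sorted away, so it was not described as a single clone. There were 4 replicates of each line, 12 samples in all, taken after 72 hours in spheroids of 8000 cells in serum-free medium with no added androgen named. Levels are messenger RNA only.

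Androgens such as testosterone and dihydrotestosterone switch on a set of genes in luminal prostate cells. FOXA1, a pioneer factor that opens chromatin, and HOXB13, a homeobox factor of the prostate lineage, take part in this response. KLK3, which encodes prostate specific antigen, its close relative KLK2, and TMPRSS2, a serine protease of the cell membrane, are classical androgen-induced genes. FKBP5 encodes a co-chaperone of steroid receptors and is induced both by androgens and by glucocorticoids. NR3C1 encodes the glucocorticoid receptor, a nuclear receptor that moves to the DNA once it has bound its hormone, and SOX9 is a transcription factor of prostate budding and of many epithelial progenitors.

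The total gene count of a sample lay between 13948734 and 19988111. Detection meant more than 3 counts in a sample, a floor that corresponded to 0.150 to 0.215 CPM (counts scaled to the library size and by TMM) and that covers counting error only. ITGA2 fitted the labels, with 305 ± 33.5 CPM (SD, n = 4) in DU145KO+α2, 17.6 ± 3.15 in DU145KO+vector and 20.7 ± 4.16 in DU145KO. Of the markers of luminal prostate cells, KRT8 was counted at 320.0 to 624 CPM and KRT18 at 254 to 463 in the 12 samples, while FOLH1 had 0 counts and ACPP between 4 and 15. The leukocyte markers PTPRC and CD3E had at most 1 count in a sample, whereas CD68 was present. The summed level of 5 epithelial markers (KRT8, KRT18, KRT19, EPCAM and CDH1) was 860.0 to 1150.0 CPM in DU145KO+α2, 1140.0 to 1390.0 in DU145KO+vector and 1210.0 to 1580.0 in DU145KO. Whether this difference has a part in the results below was not tested. In RNA from whole spheroids, fewer cells of a type and less RNA per cell cannot be told apart.

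The upstream sequences of KLK3 and KLK2 are shown because neither gene had a count in any sample while FOXA1, NR3C1 and FKBP5 were abundant. The sequences are from RefSeq, on the plus strand of chromosome 19 in GRCh38 (hg38). In KLK3 the stretch is chr19:50854718-50854777 and holds a 6-base half-site of the element bound by steroid receptors such as the glucocorticoid receptor, given in capitals, which lies from 170 to 165 bases before the start of the gene. In KLK2 the stretch is chr19:50873236-50873295, the best match to it without gaps, and the same 6 positions are in capitals.
KLK3: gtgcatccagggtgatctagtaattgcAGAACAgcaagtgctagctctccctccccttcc
KLK2: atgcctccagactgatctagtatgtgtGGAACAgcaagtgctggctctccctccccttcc

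The 2 stretches were identical at 51 of 60 bases. Counted from 1 at the first of the 6 bases, KLK2 differed from KLK3 within the capitals by A1G, and the stretch of 15 bases that begins there was otherwise identical. The letters AGAACA, or TGTTCT on the other strand, occurred in 12.4% of 35116 RefSeq windows of 250 bases before a gene start. Of the 12 windows listed for KLK2, KLK3, FOXA1, NR3C1 and FKBP5, only that of KLK3 held them. Only these exact letters were searched, so a window without them was not shown to lack an element bound by steroid receptors. TMPRSS2, HOXB13 and SOX9 had no window in the table used here.

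KLK2 (chromosome 19, 50873439 to 50880567 in hg38) and KLK3 (chromosome 19, 50854915 to 50860764) had 0 counts in each of the 12 samples. With 197611950 reads counted in all, 0 counts allowed a level of up to 0.0152 CPM over the 12 samples, and of up to 0.150 to 0.215 CPM in single samples. Only uniquely aligned reads were counted. Of the 50-base windows, 99.5% in the KLK2 transcripts and 99.8% in the KLK3 transcripts occurred in no transcript of another gene. Only exact matches between transcripts were compared, so the reads of these genes lost to this rule were not measured. The 14 other genes of the kallikrein list, which includes plasma kallikrein KLKB1, were also near the floor, and 5 of them were above 3 counts in at least 1 sample. None of the 14 passed the filter for testing, KLK12 had 0 counts, and the highest value in any sample was 8 counts, reached by KLK13 and KLK14.

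HOXB13 (chromosome 17, 48724763 to 48728750) had 1 count in replicate 1 and 1 count in replicate 3 of DU145KO+α2 and 0 in the other 10 samples, so it was not above the floor in any sample. Among steroid receptor genes, ESR1 had between 3 and 10 counts in a sample, PGR at most 5 and NR3C2, which encodes the mineralocorticoid receptor, at most 8. ESR2, with 3 to 24 counts in a sample, was tested and did not pass in any of the 3 comparisons. Its log2 fold change between the transfected lines was -1.07 (adjusted p = 0.175 in edgeR), so a change was not resolved at this level.

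TMPRSS2 (chromosome 21, 41464305 to 41508158) was at a trace level. In replicates 1 to 4 it had 13, 2, 0 and 7 counts in DU145KO, 8, 1, 1 and 3 in DU145KO+α2, and 5, 0, 1 and 1 in DU145KO+vector. It was above 3 counts in 4 samples and above 10 in 1, the counts of the 3 lines overlapped, and replicate 1 held the highest count in each line. Its mean RPKM (counts scaled to the library size and the length of the gene) over the 12 samples was 0.0651. In the GENCODE annotation 562 of its exon bases, 8.53% of them, lie opposite exons of MX1, an interferon-induced gene. The libraries were stranded, but whether the strand was used in counting is not given in the sources used here. MX1 was at 50.8, 19.6, 29.4 and 30.3 CPM in DU145KO, at 13.4, 9.50, 9.27 and 8.98 in DU145KO+α2 and at 28.2, 23.4, 21.1 and 22.2 in DU145KO+vector, and its part in the TMPRSS2 counts was not tested. TMPRSS2 had too few counts to be tested for a difference between the lines.

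**Figure D1:**
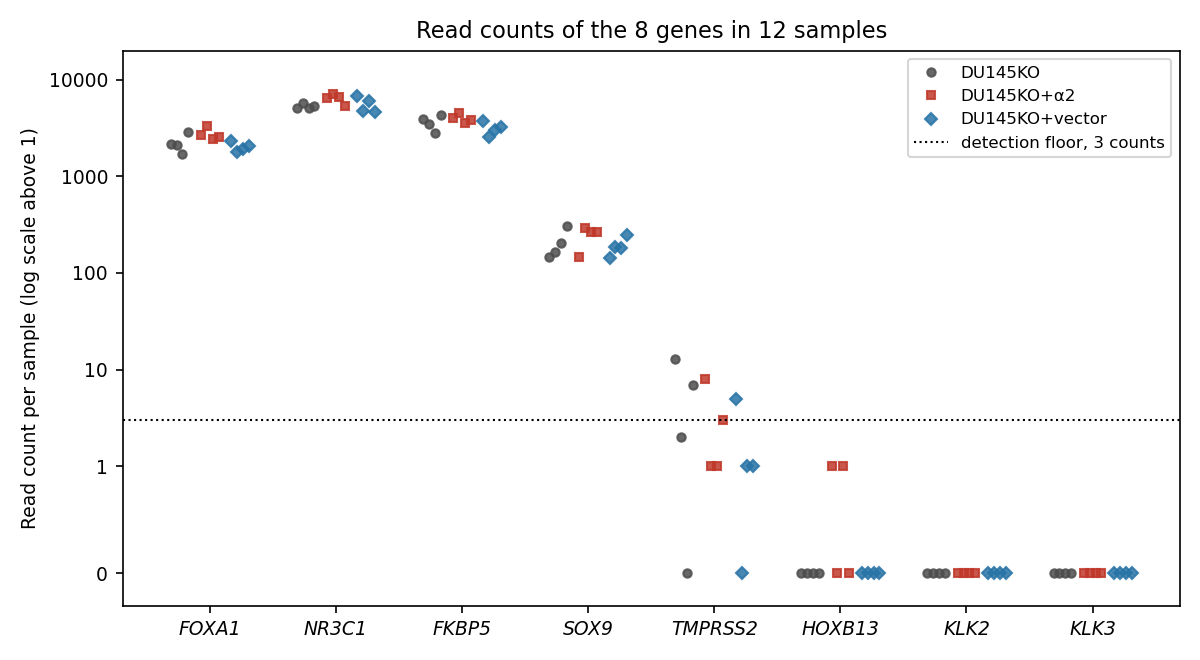
Read count per sample of the 8 genes (y axis, log scale above 1), with 1 point for each of the 12 samples coloured by line and the floor of 3 counts as a dotted line. FOXA1, NR3C1, FKBP5 and SOX9 lie above 100 counts in every sample, TMPRSS2 lies between 0 and 13, and HOXB13, KLK2 and KLK3 lie at 0 or 1.

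The other 4 genes were detected in all 12 samples. On the RPKM scale, which takes out transcript length, FOXA1 had the highest mean level over the samples, 41.8, and 93.4% of the genes in the table had a lower mean. NR3C1 followed at 36.9 (92.4% of genes lower), FKBP5 at 20.5 (85.6%) and SOX9 at 3.28 (61.6%). The ranges of FOXA1 (30.6 to 50.2) and NR3C1 (32.8 to 43.0) overlapped, and the order of these neighbours was not tested. FKBP5 stayed at 16.0 to 24.7, below both, and SOX9 at 2.04 to 4.53, below all 3.

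FOXA1 (chromosome 14, 37589552 to 37595249) was measured at 42.3, 38.1, 30.6 and 50 RPKM in replicates 1 to 4 of DU145KO, at 50.2, 48.7, 42.2 and 48.2 in DU145KO+α2, and at 38.8, 38.4, 32.4 and 42.1 in DU145KO+vector. The means were 40.2 ± 8.10, 47.3 ± 3.52 and 37.9 ± 4.06 (SD, n = 4). The lowest DU145KO+α2 sample was just above the highest DU145KO+vector sample, whereas DU145KO overlapped both other lines. In the annotation 16 exon bases of FOXA1, 0.362% of them, lie opposite exons of TTC6. FKBP5 (chromosome 6, 35573590 to 35728583) was at 24.7, 19.9, 16.0 and 23.4 RPKM in DU145KO, at 23.6, 21.6, 19.9 and 22.6 in DU145KO+α2, and at 19.6, 17.3, 16.1 and 21.0 in DU145KO+vector. All 3 lines overlapped, and replicate 3 was the lowest sample of each line, as it was for FOXA1.

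NR3C1 (chromosome 5, 143277931 to 143435512) was at 35.8, 36.6, 32.8 and 33.0 RPKM in DU145KO, at 43.0, 38.1, 41.3 and 35.4 in DU145KO+α2, and at 40.2, 36.4, 36.2 and 33.5 in DU145KO+vector, and the lines overlapped. SOX9 (chromosome 17, 72121020 to 72126416) was at 2.44, 2.50, 3.16 and 4.53 RPKM in DU145KO, at 2.37, 3.70, 3.94 and 4.29 in DU145KO+α2, and at 2.04, 3.43, 2.65 and 4.33 in DU145KO+vector. The coefficient of variation between replicates of a line was 23.5 to 31.8% for SOX9 and 5.68 to 8.58% for NR3C1, which varied least of the 4 genes in DU145KO and DU145KO+vector but not in DU145KO+α2. The 3 lines covered nearly the same range of SOX9.

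**Figure D2:**
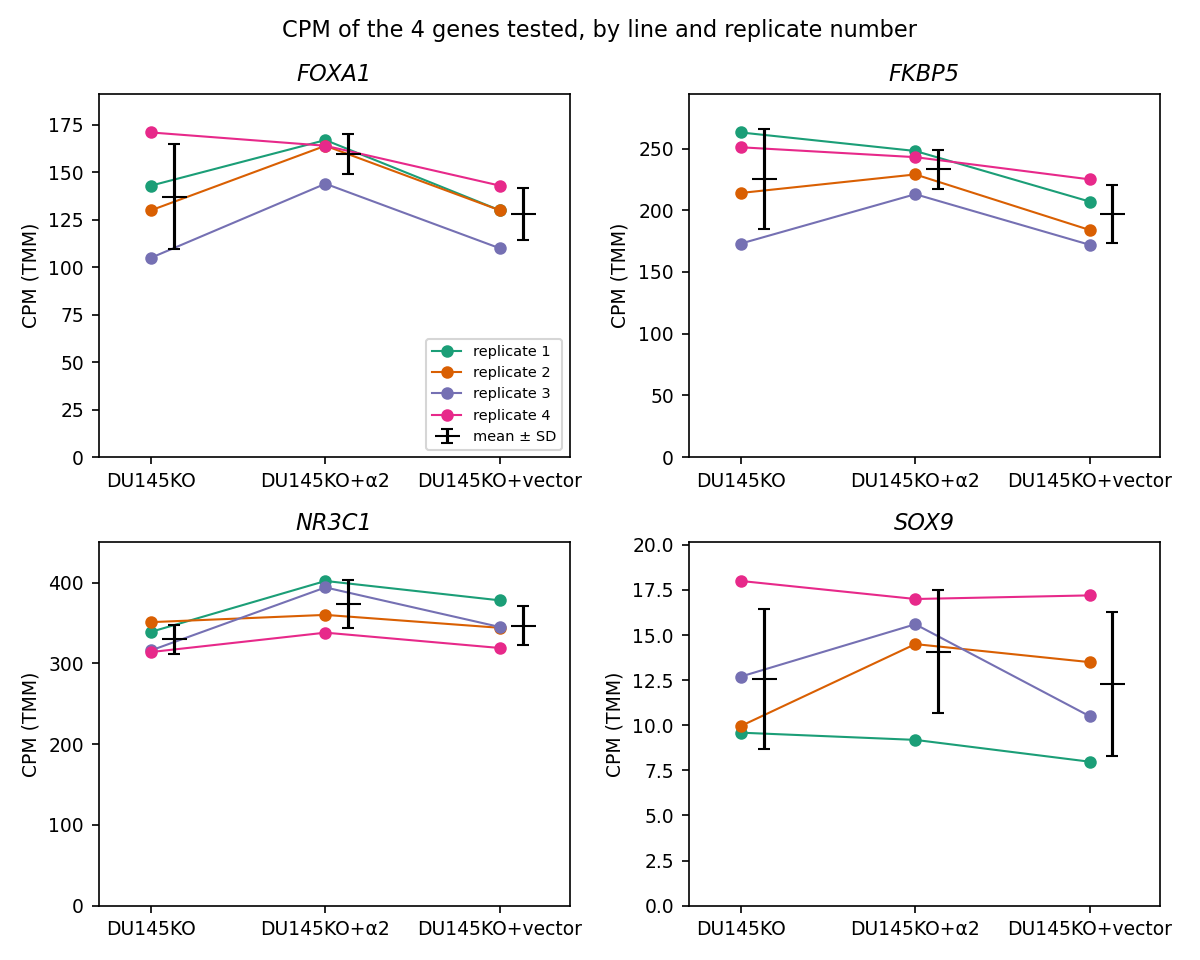
CPM of FOXA1, FKBP5, NR3C1 and SOX9 (y axes, from 0) in the 3 lines, with samples of the same replicate number joined by a line and the mean ± SD of 4 samples in black. Replicate 3 is lowest for FOXA1 and FKBP5 in every line, and for FOXA1, FKBP5 and NR3C1 each DU145KO+α2 sample lies above the DU145KO+vector sample of its number.

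FOXA1, FKBP5, NR3C1 and SOX9 were among the 14732 genes with enough counts to be tested, and the other 4 were not tested. A gene passed when the p-value of edgeR's quasi-likelihood test, adjusted by the Benjamini-Hochberg method over all genes tested, was below 0.05, and was called differentially expressed (DE) if it also changed more than 2-fold. Samples with the same replicate number deviated together, so values from a model with the replicate number as a block are given where they differ in outcome. The 3 comparisons share samples and are not independent of each other.

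In DU145KO+α2 compared to DU145KO+vector, separately transfected lines with and without the α2 cDNA, the 4 genes differed by at most 25.1%. None of the 4 passed without the block (0 of 4, against 11.9% of all genes tested, and 0 of 4 DE against 2.21%), with DESeq2 or with voom and limma, and 1 of the 4 had an unadjusted p below 0.05. With the block 2 of the 4 passed, both higher in DU145KO+α2, where 26.5% of all genes passed and 12.9% passed as higher. FOXA1 was one of them, at 0.32 on the log2 scale (95% interval 0.19 to 0.45, standard error 0.06, adjusted p = 0.000523 with the block in edgeR). Without the block the same value of 0.32 had a standard error of 0.12 and an adjusted p of 0.104. FOXA1 was 1.28, 1.27, 1.30 and 1.15 times as high in the DU145KO+α2 sample as in the DU145KO+vector sample of the same number, higher in 4 of 4 pairs. Its groups did not overlap, as was the case for 17.2% of all genes tested (two-sided exact permutation test on CPM, p = 0.0286, the smallest p that 4 samples against 4 can give, and 0.343 after adjustment over the 12 tests of this kind). FOXA1 also passed without the block when replicate 3 of DU145KO (adjusted p = 0.0397 in edgeR) or replicate 4 of DU145KO (0.0468) was left out.

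FKBP5 was the second gene to pass with the block, at 0.25 on the log2 scale (95% interval 0.12 to 0.37, standard error 0.06, adjusted p = 0.00341 in edgeR) and ratios of 1.19, 1.25, 1.24 and 1.08 in the 4 pairs. Without the block it was 0.24 (standard error 0.12, adjusted p = 0.217). NR3C1 had a log2 fold change of 0.11 in both fits and did not pass (adjusted p = 0.148 with the block in edgeR), and the interval with the block allowed a fold change of 0.997 to 1.16. SOX9 was at 0.22 with the block (adjusted p = 0.177 in edgeR), with an interval of 0.984 to 1.37 in fold change, so a small change of either gene was not resolved.

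In DU145KO+α2 compared to DU145KO again 0 of 4 passed without the block, with DESeq2 or with voom and limma, against 8.17% of all genes by edgeR, 0 of 4 were DE against 2.1%, and 1 of the 4 had an unadjusted p below 0.05. With the block 2 of the 4 passed, both as higher, where 22.3% of all genes passed and 9.93% passed as higher. The log2 fold change of FOXA1 was 0.24 with the block (standard error 0.06, adjusted p = 0.00852 in edgeR), higher in 3 of 4 pairs, and 0.22 (standard error 0.12, adjusted p = 0.312) without it. NR3C1 was at 0.18 in both fits (standard error 0.05 and adjusted p = 0.0218 with the block in edgeR, 0.08 and 0.200 without), with pair ratios of 1.19, 1.03, 1.25 and 1.07. FKBP5 was at 0.07 with the block (adjusted p = 0.477 in edgeR), with an interval of 0.961 to 1.14 in fold change, and was higher in 2 of 4 pairs. SOX9 was at 0.18 (adjusted p = 0.299 with the block in edgeR), higher in 2 of 4 pairs.

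In DU145KO+vector compared to DU145KO, the 2 lines without α2 integrin, 0 of 4 passed without the block, with DESeq2 or with voom and limma, against 2.34% of all genes by edgeR, 0 of 4 were DE against 0.835%, and 0 of the 4 had an unadjusted p below 0.05. With the block FKBP5 passed as lower, where 13.4% of all genes passed and 7.85% passed as lower. It fell by 0.18 on the log2 scale with the block (standard error 0.06, adjusted p = 0.0451 in edgeR) and was at -0.19 (standard error 0.12, adjusted p = 0.491) without it, and its ratios were 0.789, 0.859, 0.998 and 0.897 in the 4 pairs. FOXA1 was at -0.09 (0.861 to 1.03 in fold change with the block), NR3C1 at 0.07 (0.970 to 1.13) and SOX9 at -0.04 (0.821 to 1.15), and these 3 did not pass. FKBP5 was thus lower in DU145KO+vector than in either other line with the block, while the difference of 0.07 between DU145KO+α2 and DU145KO did not pass.

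**Figure D3:**
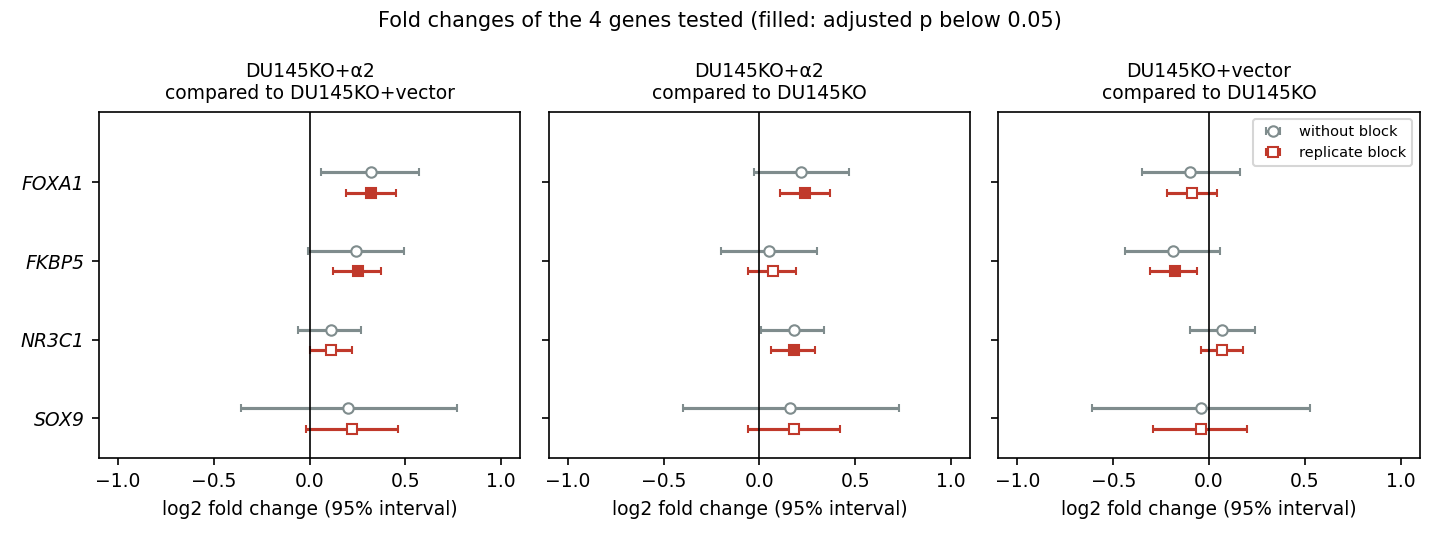
Log2 fold changes with 95% intervals (x axis) of the 4 genes tested in the 3 comparisons, without the block (grey circles) and with the replicate number as a block (red squares), filled where the adjusted p was below 0.05. All intervals lie within -0.61 to 0.77, the block narrows them, and 5 of the 12 values with the block are filled while 0 without it are.

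The levels of 3 of the 4 genes differed by replicate number. In the model with the block, a test chosen after the values were seen, the replicate number passed for SOX9 (adjusted p = 0.000254 in edgeR), FKBP5 (0.000853) and FOXA1 (0.00131) but not for NR3C1 (0.0756), and it passed for 35.7% of all genes tested. SOX9 was lowest in replicate 1 and highest in replicate 4 of every line, with a highest CPM of 1.87 times the lowest in DU145KO, 1.85 times in DU145KO+α2 and 2.15 times in DU145KO+vector. On the log2 scale replicate 1 was on average 0.49 below and replicate 4 was 0.47 above the mean of its line. FOXA1 deviated by -0.24 and FKBP5 by -0.22 in replicate 3, the lowest replicate of each line for both genes. On the CPM scale NR3C1 was lowest in replicate 4 of each line, with a mean deviation of -0.11 on the log2 scale. The labels do not say what a replicate number stands for beyond the replicate.

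FOXA1 and FKBP5 also varied together from sample to sample. Over the 12 samples Pearson's r of their log2 CPM was 0.88 (Spearman's rho 0.80) and it was 0.89 after the mean of each line was taken out. Without the 2 samples farthest from the median of FOXA1, replicate 3 of DU145KO and of DU145KO+vector, r was 0.72 over 10 samples. These points share library, line and replicate number, and r is given as a description. Out of 12851 genes compared, FKBP5 ranked 37 among the genes most like FOXA1 and FOXA1 ranked 21 among those most like FKBP5. SOX9 and NR3C1 went in opposite directions within lines (r of -0.81 within lines, -0.47 over all samples), and the r of the other 4 pairs over all samples lay between 0.11 and 0.37.

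The 2 genes most like each member were taken by r over the 12 samples. They were ANP32A (0.955) and HN1 (0.943) for FOXA1, CCDC117 (0.934) and GPRC5A (0.933) for FKBP5, RBSN (0.909) and PLCL1 (0.903) for NR3C1, and TNFAIP3 (0.948) and NFKB2 (0.935) for SOX9. TNFAIP3 encodes an inhibitor of NF-κB signalling and NFKB2 an NF-κB subunit.

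**Figure D4:**
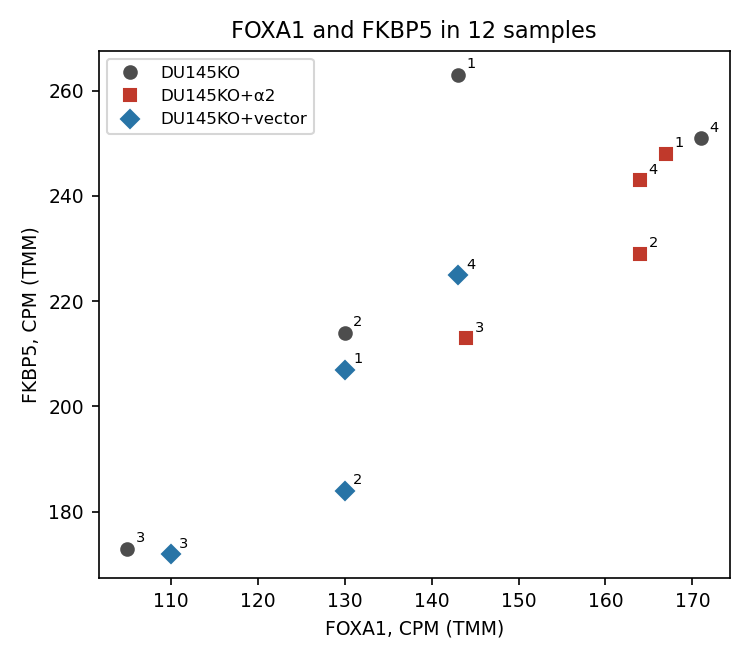
CPM of FOXA1 (x axis) and FKBP5 (y axis) in the 12 samples, coloured by line and numbered by replicate, with axes that do not start at 0. Both genes are lowest in replicate 3 of each line, and r of the log2 values is 0.88.

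The neighbourhood of each gene was also examined, since stretches of a chromosome can shift together between lines. Within 10 Mb on either side of NR3C1, 161 genes were tested, and their median log2 fold change was -0.18 in the α2 line and -0.17 in the vector line compared to DU145KO, while that of NR3C1 was 0.18 and 0.07. Between the transfected lines this median was -0.02. The medians around FOXA1, FKBP5, SOX9, KLK2, KLK3 and HOXB13 lay within 0.08 of 0 in all comparisons, and those around TMPRSS2 were -0.14 and -0.10 compared to DU145KO.

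Genes of the androgen response did not move in 1 direction. Of 40 genes known to be induced by androgen, 33 were tested, and in DU145KO+α2 compared to DU145KO+vector 6 rose and 4 fell, with a median log2 fold change of 0.03 against -0.01 over all genes, of which 11.9% passed, 878 higher and 876 lower. C1orf116, an androgen-regulated gene also known as SARG, fell by 2.82 on the log2 scale (2.50 against 18.1 CPM, adjusted p = 0.000354), and ALDH1A3, which makes retinoic acid from retinal, fell by 1.15 (186 against 412 CPM, 0.00738). STEAP4 and ABCC4, named after their values were seen, fell by 0.84 and 0.57. NDRG1, a gene also induced by hypoxia, rose by 1.43 (220.0 against 81.5 CPM, adjusted p = 0.000149, all in edgeR). PMEPA1 (0.80), STEAP2 (0.58), ELL2 (0.40) and UAP1 (0.37) were among the others that rose and were likewise named after their values were seen. Compared to DU145KO, 3 rose and 5 fell in DU145KO+α2, where 8.17% of all genes passed, 455 higher and 748 lower, the falling genes being C1orf116 (-2.70), ALDH1A3 (-1.1), SPDEF (-0.83), STEAP4 (-0.71) and ABCC4 (-0.37), the rising ones NDRG1 (0.74), UAP1 (0.35) and PMEPA1 (0.30). In DU145KO+vector compared to DU145KO 2 fell, PMEPA1 by 0.50 and NDRG1 by 0.69, where 2.34% of all genes passed. With the block, where 13.4% of all genes passed, NDRG1 did not pass (adjusted p = 0.0583 in edgeR). PMEPA1, STEAP2, ELL2 and MED28, the last 3 named after their values were seen, fell with the block. Of the 8 that passed in DU145KO+α2 compared to DU145KO, the count was 3 without replicate 3 or 4 of DU145KO+α2 and 5 without replicate 2 or 4 of DU145KO, and in DU145KO+vector compared to DU145KO it was 1 in 9 of the 12 cases with 1 sample left out.

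Of 26 genes known to be induced by glucocorticoids, 22 were tested, and in DU145KO+α2 compared to DU145KO+vector 6 rose and 2 fell, with a median of 0.22, where 11.9% of all genes passed, 878 higher and 876 lower. SGK1, a kinase of ion transport and survival, rose by 0.99 (26.7 against 13.4 CPM, standard error 0.20, adjusted p = 0.00576 in edgeR). CDKN1C, a cell cycle inhibitor, rose by 0.77 (15.4 against 9.08 CPM, adjusted p = 0.00232 in edgeR) and KLF9, a zinc finger factor, by 0.67 (92.7 against 58.2 CPM, 0.00394). The fallers, named after their values were seen, were SAP30 (-0.60) and STOM (-0.28). Leaving out replicate 3 of DU145KO+α2 or replicate 4 of DU145KO+vector left 4 that passed, and leaving out replicate 1 or 2 of DU145KO+α2 or replicate 2 or 3 of DU145KO+vector left 5. Between the transfected lines 7 rose and 4 fell with the block, where 26.5% of all genes passed, 1898 higher and 2013 lower. Compared to DU145KO, 1 rose and 2 fell in DU145KO+α2 with a median of -0.10, where 8.17% of all genes passed. With the block 7 rose and 4 fell, where 22.3% of all genes passed, 1463 higher and 1823 lower. Without replicate 1 of DU145KO 6 genes of the list passed in place of 3, in the fit with no block. SGK1 rose by 0.84, whereas LCN2, a lipocalin, fell by 1.31 and BIRC3, an inhibitor of apoptosis, fell by 0.50. In DU145KO+vector compared to DU145KO, 0 of 22 passed in edgeR without the block, 2 with DESeq2 and 0 with voom and limma. With the block 1 rose and 4 fell. Of all genes, 2.34% passed in edgeR without the block and 13.4% with it, and the shares with DESeq2 or with voom and limma are not given here.

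**Figure D5:**
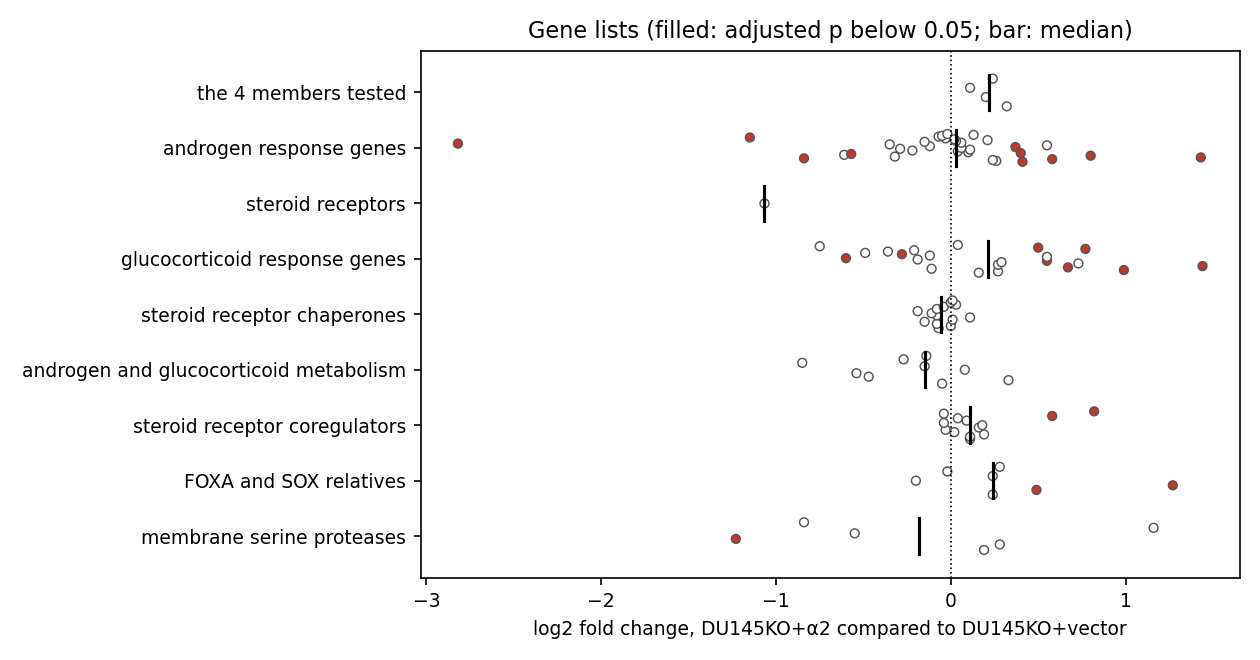
Log2 fold change in DU145KO+α2 compared to DU145KO+vector (x axis) of each gene tested in 8 lists and of the 4 members tested, with filled points where the adjusted p was below 0.05 and a bar at the median. Androgen response genes are spread on both sides of 0 with a median of 0.03, and the 14 chaperone genes lie close to 0.

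The machinery around the receptors was largely present. For the counts below, 11.9% of all genes tested passed by edgeR between the transfected lines without the block and 26.5% with it. In DU145KO+α2 compared to DU145KO these shares were 8.17% and 22.3%. In DU145KO+vector compared to DU145KO they were 2.34% and 13.4%. Shares of all genes with DESeq2 or with voom and limma are not given here. All 14 steroid receptor chaperone genes, which include HSP90AA1 and FKBP4, were detected in every sample, and 0 of 14 passed between the transfected lines with or without the block, with DESeq2 or with voom and limma. All 13 genes of the coregulator list were detected in every sample as well. GATA3 (2.80 against 1.62 CPM, log2 fold change 0.82) and GRIP1 (6.48 against 4.35 CPM, 0.58) rose between the transfected lines. The symbol GRIP1 stands for glutamate receptor interacting protein 1, not for the coregulator NCOA2 that was once given the same name. NCOA2, also in the list, did not pass there (0.11, adjusted p = 0.421 in edgeR). With the block 5 genes of the list rose, GRIP1 among them. Compared to DU145KO no gene of these lists passed without the block, with DESeq2 or with voom and limma, and with the block 2 chaperone genes and 1 coregulator fell in DU145KO+α2 and 3 coregulators fell in DU145KO+vector. By contrast, 9 of 20 genes of androgen and glucocorticoid metabolism were tested, and between the transfected lines 0 passed in edgeR without the block, 4 with it (1 higher, 3 lower), 2 with DESeq2 and 0 with voom and limma. CYP17A1 and HSD3B1, which make androgen precursors, and SRD5A2, which makes dihydrotestosterone, had at most 3 counts in a sample. SRD5A1, which also makes dihydrotestosterone, had 665 to 1057 counts in a sample, and AKR1C3 had 2028 to 3629. Both were named after their values were seen. AKR1C2, which inactivates dihydrotestosterone, fell by 1.03 in DU145KO+α2 compared to DU145KO (14.3 against 29.2 CPM, adjusted p = 0.00501 in edgeR), the only gene of the list to pass there without the block, against 4 with it. In DU145KO+vector compared to DU145KO 0 of the 9 passed without the block and 2 fell with it.

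Detection also varied among relatives of the members. Between the transfected lines 11.9% of all genes tested passed by edgeR without the block. In DU145KO+α2 compared to DU145KO 8.17% passed by edgeR without the block and 22.3% with it. In DU145KO+vector compared to DU145KO 2.34% passed by edgeR without the block. Shares with DESeq2 or with voom and limma are not given here. Of 12 FOXA and SOX relatives 7 were tested, and SOX4 (616 against 439 CPM, log2 fold change 0.49) and the low SOX5 (1.87 against 0.769 CPM, 1.27, named after its values were seen) rose between the transfected lines, while FOXA2 had at most 6 counts. Compared to DU145KO, 0 of the 7 passed in DU145KO+α2 without the block, 1 each with DESeq2 and with voom and limma, and 2 rose with the block. Of 11 membrane serine proteases related to TMPRSS2, 6 were tested. ST14, which encodes matriptase, was at 5.05 ± 1.47 CPM in DU145KO+α2, 11.8 ± 2.05 in DU145KO+vector and 34.7 ± 7.39 in DU145KO (SD, n = 4), without overlap between the lines. Its log2 fold change was -1.23 between the transfected lines (adjusted p = 0.00141 in edgeR), -2.78 in DU145KO+α2 compared to DU145KO (1.84e-06) and -1.55 in DU145KO+vector compared to DU145KO (0.000586). The groups did not overlap for 17.2% of all genes tested between the transfected lines. This share was 12.9% in DU145KO+α2 and 8.76% in DU145KO+vector, each compared to DU145KO. HPN, which encodes hepsin, fell by 0.85 in DU145KO+α2 compared to DU145KO (4.14 against 7.50 CPM). Leaving out 1 sample changed the outcome of several of these short lists: no coregulator passed between the transfected lines without replicate 3 or 4 of DU145KO+α2 or replicate 3 of DU145KO+vector, and no FOXA or SOX relative without replicate 4 of DU145KO+α2 or replicate 2 or 3 of DU145KO+vector. Of the 2 membrane serine proteases that passed in DU145KO+α2 compared to DU145KO, 1 was left without replicate 1 of DU145KO or replicate 2, 3 or 4 of DU145KO+α2.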

How the data were processed

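The authors aligned reads to hg38 with TopHat 2.1.0 and counted uniquely aligned reads per gene with Subread 1.5.0. The deposited counts are not normalized and all tests used them. The authors also deposited RPKM values, scaled by TMM and gene length, which were used for levels. Lines and replicate numbers come from the labels. Of 26485 genes, 14732 passed filterByExpr of edgeR (minimum count 10). R 4.3.3, edgeR 4.0.16 (robust quasi-likelihood F-test, TMM, 12 samples in 1 model), limma 3.58.1 and DESeq2 1.42.0 were used, and scripts were tested on simulated data. Tests were two-sided.

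Deviations from line means correlated at 0.135 to 0.554 in all 12 pairs of samples with the same number (mean 0.378). The mean for different numbers was -0.126, but deviations sum to 0 within a line, so this value largely follows from the first. The numbers were taken as pairs on the same-number correlations. This pairing comes from the data.

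Members and lists were chosen with earlier results of these data known. Genes named were the members, ITGA2, at most 3 passing genes with the largest change per list and comparison (average log2 CPM of at least 1), and the 2 genes most like each member. Other scalings, filters, tools, samples and each sample left out were alternatives. The replicate number test was added after values were seen. Positions and promoters come from RefSeq. Some genes within these rules are not reported here.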

Additional observations from a re-analysis of the deposited data

Results flagged for a closer look

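Among 16 groups of 4 samples examined, 1 held a sample far from the others, where 0.8 would be so by chance. FOXA1 in replicate 3 of DU145KO+α2 was at 144 CPM while replicates 1, 2 and 4 were at 167, 164 and 164 CPM, a gap of 0.871 of the range of the group. Replicate 3 was also the lowest sample for FOXA1 in DU145KO and in DU145KO+vector.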

How the results depend on the processing

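Each of the 12 log2 fold changes of the 4 genes tested was recomputed under 8 other settings and with each of the 12 samples left out. Of the 240 values, 235 kept their direction and 8 passed the test, 5 of them with the replicate number as a block. The block, which pairs samples of the same number, let 2 of the 4 genes pass in DU145KO+α2 compared to DU145KO+vector, 2 compared to DU145KO and 1 in DU145KO+vector compared to DU145KO, and it changed no other call of these genes. A fit of only the 2 lines compared let 1 gene, FOXA1, pass between the transfected lines (adjusted p = 0.0266 in edgeR), and leaving out 1 sample let 0 to 1 pass there. With 1 sample left out, the value of FKBP5 in DU145KO+α2 compared to DU145KO ranged from -0.06 (without replicate 3 of DU145KO) to 0.15. In DU145KO+vector compared to DU145KO, that of FOXA1 ranged from -0.20 to 0.03 (without replicate 4 of DU145KO) and that of SOX9 from -0.24 to 0.19 (without replicate 4 of DU145KO, with 0.13 and 0.03 without replicates 1 and 3 of DU145KO+vector). The cause was not tested. None of these values passed. With a floor of 10 counts in place of 3, the number of samples with TMPRSS2 detected went from 4 to 1, and the same 4 genes were detected in all samples. Depth limits what can be said of KLK2, KLK3, HOXB13 and TMPRSS2, and with 4 samples a line SOX9 was the least precisely measured of the genes tested.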
